A study of Mus musculus with 8 samples.

Results

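The immediate early transcription factor genes are described here as 10 genes, *Fos*, *Fosb*, *Jun*, *Junb*, *Jund*, *Egr1*, *Ier2*, *Ier3*, *Klf4* and *Klf6*, taken by symbol from the 31053 genes of the deposited tables. Each symbol occurred once and all 10 were detected. They were measured in single cells of 8 large B16F10 tumours of 300 mm3, 4 grown in Atf4wt/wt hosts and 4 in Atf4D/D hosts, with 1 library per tumour. B16F10 is an established mouse melanoma line. All hosts were labelled as 12 weeks old, carried Rosa26::CreERT2 and received tamoxifen. In Atf4D/D hosts this removes the loxP-flanked part of *Atf4* throughout the body, whereas the injected melanoma cells keep the gene. The Atf4wt/wt mice were 2 males and 2 females and the Atf4D/D mice 3 males and 1 female.

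Immediate early genes are switched on within minutes of a stimulus, without new protein synthesis, when growth factor, cytokine or stress signals reach factors that are already present, such as the serum response factor and CREB. Fos and Jun family proteins pair to form AP-1, EGR1 is a zinc finger activator, and KLF4 and KLF6 are Krüppel-like factors. The transcripts are short-lived, and in tissue they are also known to rise while cells are being dissociated. In tumours, AP-1 is known for its part in fibroblast activation, macrophage responses and melanoma cell state.

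In GRCm38, *Jund*, *Junb* and *Ier2* are on chromosome 8 and *Jun* and *Klf4* on chromosome 4. *Fos* (chromosome 12, 85473890 to 85477273, + strand) and *Fosb* (chromosome 7, 19302696 to 19310051, - strand) encode Fos family partners.

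The promoter windows of 4 genes are shown because results below turn on them: *Fos* ranges least over the melanoma-like clusters, *Fosb* was without overlap between CAF-like and melanoma-like cells, *Ier3* ranges most over the melanoma-like clusters and *Klf4* is the gene called by host genotype in 1 of them. Each window runs from 250 bases before to 50 bases after the start site (RefSeq, GRCm38.p6), 5′ to 3′ on the strand of the gene. *Fos* is chr12:85473640-85473939 (+), *Fosb* chr7:19309996-19310295 (-), *Ier3* chr17:35821463-35821762 (+) and *Klf4* chr4:55532426-55532725 (-). Capitals mark motif letters found on either strand.
Fos: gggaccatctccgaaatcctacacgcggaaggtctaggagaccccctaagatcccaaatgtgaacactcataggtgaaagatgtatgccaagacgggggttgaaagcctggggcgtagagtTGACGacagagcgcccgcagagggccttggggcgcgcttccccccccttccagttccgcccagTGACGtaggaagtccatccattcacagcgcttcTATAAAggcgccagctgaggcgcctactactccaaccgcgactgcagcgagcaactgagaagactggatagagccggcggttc
Fosb: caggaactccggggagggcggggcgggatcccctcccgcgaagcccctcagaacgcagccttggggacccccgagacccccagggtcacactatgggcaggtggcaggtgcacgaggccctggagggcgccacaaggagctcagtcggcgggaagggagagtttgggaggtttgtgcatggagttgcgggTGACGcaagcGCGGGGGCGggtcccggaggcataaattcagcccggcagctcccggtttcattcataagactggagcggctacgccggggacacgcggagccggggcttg
Ier3: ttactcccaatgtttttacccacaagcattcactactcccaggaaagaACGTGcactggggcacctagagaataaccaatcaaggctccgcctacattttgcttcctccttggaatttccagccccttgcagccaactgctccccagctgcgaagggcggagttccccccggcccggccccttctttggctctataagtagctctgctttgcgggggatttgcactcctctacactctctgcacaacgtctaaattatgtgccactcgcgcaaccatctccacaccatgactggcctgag
Klf4: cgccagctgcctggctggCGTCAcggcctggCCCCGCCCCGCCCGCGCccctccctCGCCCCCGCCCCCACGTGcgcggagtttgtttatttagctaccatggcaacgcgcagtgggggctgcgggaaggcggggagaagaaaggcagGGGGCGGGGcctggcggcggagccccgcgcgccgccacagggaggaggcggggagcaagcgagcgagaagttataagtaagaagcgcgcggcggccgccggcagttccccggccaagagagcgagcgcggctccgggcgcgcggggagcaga

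RefSeq windows were found for 8 of the 10 genes, not for *Egr1* and *Ier2*. The CRE half-site TGACG was in 4 of the 8 windows, against 21.0% of 27025 promoters, and lay at positions -129 and -66 of *Fos*, counted from the start site at 0 to the first base of the match on the printed strand. The hypoxia response core ACGTG was also in 4 of 8, against 19.7% of promoters, among them *Ier3* at -202. TATAAA was in 2 of 8 (14.2% of promoters), in *Fos* at -33 and in *Junb* at 0. The EGR motif GCGNGGGCG was in 2 of 8 (5.55% of promoters), at -50 in *Fosb* and at -211 and -194 in *Klf4*, where it overlaps GC boxes, GGGGCGGGG (1 of 8, 11.6% of promoters). The full CRE TGACGTCA, the AP-1 motif TGANTCA, the CArG box and the NF-kB motif GGGNNTTTCC had no match in the 8 windows and were in 1.88%, 7.93%, 1.57% and 1.62% of promoters. Sites more than 250 bases before the start were not searched, so the genes are not said to lack these motifs.

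The libraries held 37283598 to 74942137 UMIs. Of 41925 barcodes 28411 passed the filters, and 28169 remained after a cluster of 242 was removed for its mitochondrial share, of which 231 came from Atf4wt/wt replicate 4. Pairs of libraries shared 2 to 14 barcodes. *Atf4* was lower in the fibroblast class defined next (CAF-like) of every Atf4D/D tumour, at 90.1 to 171 CPM (UMIs of a gene as counts per 1e6 UMIs of the same cells and tumour) against 278 to 323 in Atf4wt/wt (log2 fold change -1.30 ± 0.20 SE, adjusted p = 0.0369, edgeR), and did not pass the test in melanoma-like cells (0.03 ± 0.14, adjusted p = 0.959). The *Atf4* value in CAF-like cells stayed below 0 in every alternative fit run, but the call was lost with the replicate block (adjusted p = 0.0581), with sex as a covariate (0.0944), at 1000 genes per cell or more (0.0662), with the 10 genes kept in the clustering (0.0531), without any 1 of the 4 Atf4wt/wt tumours (0.0669 to 0.296) and without Atf4D/D replicate 2 (0.413) or 4 (0.198), over a range of adjusted p from 7.45e-06 to 0.413 (edgeR and DESeq2). The call was kept in the other alternatives. With a mitochondrial limit of 5% the difference was -1.62 ± 0.20 (adjusted p = 0.00714, edgeR). Without CAF-like cells that carry melanoma marker RNA it was -1.84 ± 0.27 (adjusted p = 0.0386, edgeR). Over all immune cells *Atf4* differed by -1.53 ± 0.22 (adjusted p = 0.0343, edgeR). Clusters were named by marker genes as melanoma-like (23731 cells), CAF-like (cancer-associated fibroblasts, 729 cells) and TAM-like (tumour-associated macrophages, 244 cells). *Col1a1* was at 9114 ± 2173 CPM in CAF-like and 4.3 ± 3.9 in melanoma-like cells (SD, n = 8 tumours), and *C1qa* at 4376 ± 762 in TAM-like cells (n = 7). CAF-like cells also held melanoma RNA: *Pmel* was at 563 ± 246 there and 3054 ± 192 in melanoma-like cells. Of the 729 cells, 221 formed a subcluster led by *Dct*, *Pmel* and *Mlana* that met the marker rule for melanoma-like cells, although *Col1a1* was at 4623 CPM in it (*Pmel* at 1438, both pooled over tumours). It held 17.6% to 29.7% of the CAF-like cells in Atf4wt/wt tumours and 30.3% to 40.8% in Atf4D/D tumours, without overlap. In Atf4D/D replicate 3 these were 4 of 10 cells. Comparisons with CAF-like cells were repeated without the subcluster, an alternative chosen after seeing the data that leaves Atf4D/D replicate 3 too few cells to enter. In that setting *Atf4* differed by -2.15 ± 0.245 between hosts (adjusted p = 0.00512, edgeR). The CAF-like cells of Atf4D/D replicate 3 were 10 cells with 40826 UMIs, and TAM-like cells of Atf4wt/wt replicate 2 were 3 cells, too few to enter a test.

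All 10 genes were higher in CAF-like cells than in the melanoma-like cells beside them. The widest gap was that of *Egr1*, an activator of growth factor and matrix genes, at 614 ± 205 CPM in CAF-like cells and 14.3 ± 6.7 in melanoma-like cells (SD, n = 8). A UMI marks 1 captured transcript end, so these levels need no scaling by length. Over the tested genes 25.2% were called higher and 28.4% lower in this comparison (adjusted p under 0.05, edgeR with tumour as a block, 11770 genes), beside 10 of 10 for these genes.

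In CAF-like cells *Egr1* was at 954, 435, 563 and 816 CPM in Atf4wt/wt replicates 1 to 4 and at 600, 637, 294 and 613 in Atf4D/D replicates 1 to 4. In melanoma-like cells it ran from 8.03 to 27.2 over the 8 tumours. The groups did not overlap, and the fitted log2 fold change was 5.63 ± 0.18 (SE, adjusted p = 7.24e-25). The share of cells with an *Egr1* UMI, with every cell thinned to 2000 UMIs, was 61.5% in CAF-like and 2.78% in melanoma-like cells (76.8% and 10.7% unthinned, at medians of 4577 and 10301 UMIs per cell). In TAM-like cells it was 10.6% (14.3% unthinned, median 2818.5 UMIs). Thinned shares were higher in CAF-like than in melanoma-like cells for 10 of 10 genes, for example 61.4% against 14.6% for *Junb* and 60.7% against 38.1% for *Fos*. RNA that is free in the droplets also gives UMIs, so the melanoma-like *Egr1* share is not read as expression.

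Among the Jun family, *Junb* differed most. This AP-1 subunit was at 880, 778, 513 and 646 CPM in the CAF-like cells of Atf4wt/wt replicates 1 to 4 and at 543, 538, 294 and 617 in Atf4D/D, against 65.0 to 108 in melanoma-like cells. Its log2 fold change was 2.98 ± 0.13 (adjusted p = 1.88e-20), and every CAF-like value lay above every melanoma-like one. *Jun*, the founding AP-1 subunit, differed by 1.25 ± 0.13 and *Jund*, the member that is usually expressed at rest, by 0.96 ± 0.11, the smallest difference of the 10. Neither gene's groups overlapped.

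In the Fos family, *Fosb* was at 442 ± 102 CPM in CAF-like and 92.2 ± 16.1 in melanoma-like cells (log2 fold change 2.44 ± 0.14, adjusted p = 1.82e-17), without overlap. *Fos* was at 724 ± 230 and 303 ± 62.7 (1.39 ± 0.14, adjusted p = 1.41e-10). Its groups overlapped only through Atf4D/D replicate 3, at 318 from 13 UMIs, below the highest melanoma-like value of 424.

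*Ier2* and *Ier3*, early genes whose products modulate transcription and survival, differed by 2.09 ± 0.12 and 2.13 ± 0.18 on the log2 scale, and *Klf4* and *Klf6* by 1.75 ± 0.22 and 1.15 ± 0.12. *Ier3* was higher in CAF-like cells in 7 of 8 tumours and *Klf4* in 6 of 8; the other 8 genes were higher in 8 of 8. In the CAF-like cells of Atf4D/D replicate 3 *Ier3* and *Klf4* rested on 1 UMI each, and *Klf6*, at 196, lay below the highest melanoma-like value of 203. When 90 cells with melanoma marker RNA were left out of the class, its means were higher, for example 728 for *Egr1* and 708 for *Junb*. Without the melanoma-marker subcluster 10 of 10 were called higher, with *Egr1* at 6.05 and *Jund* at 1.15 on the log2 scale.

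**Figure D1:**
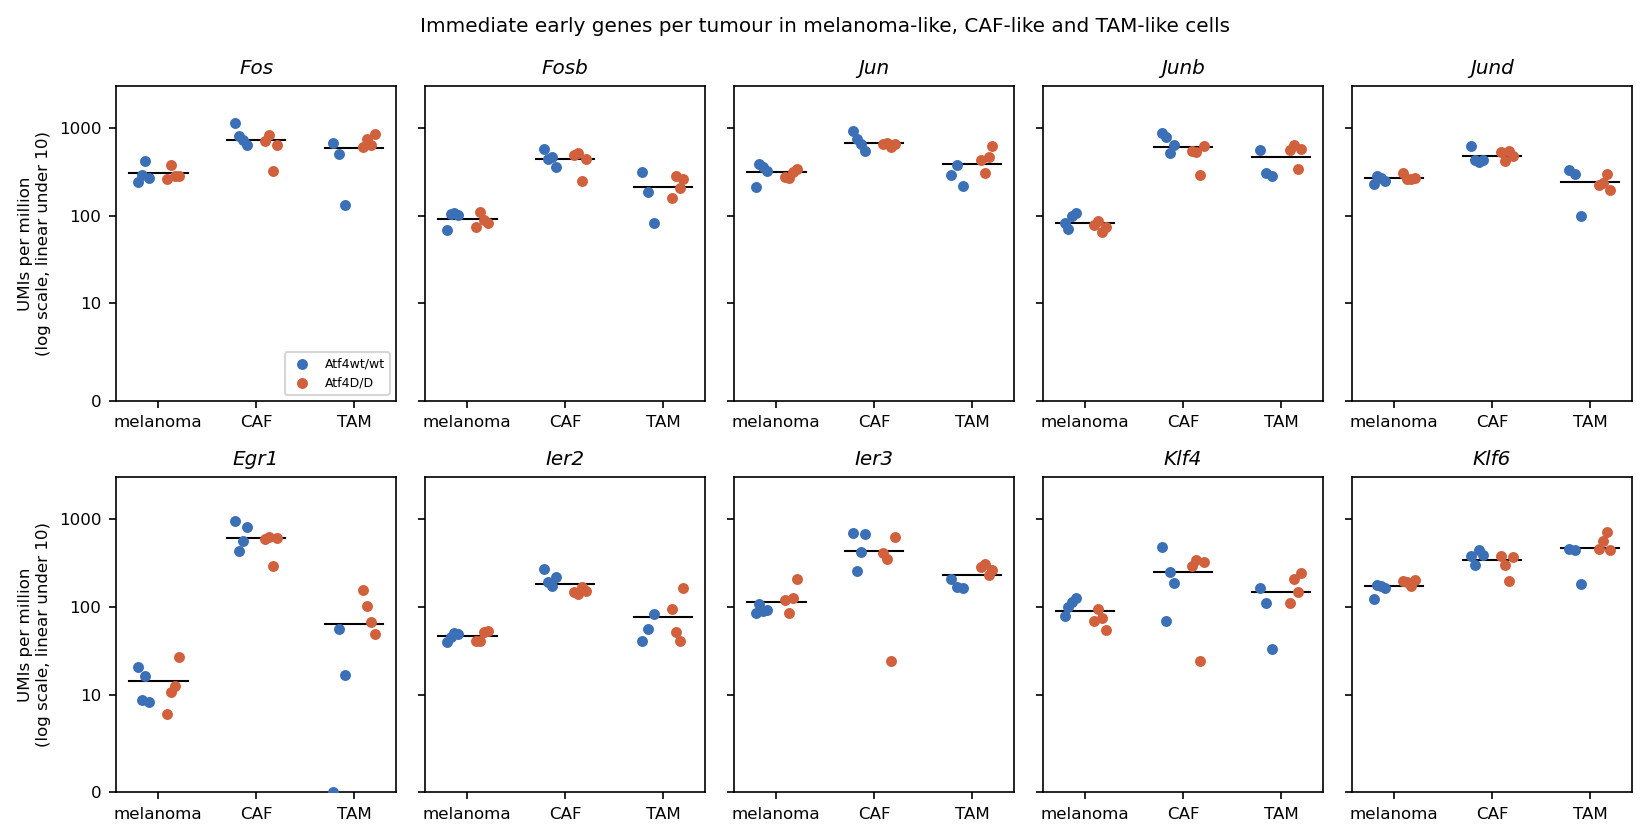
Level of each gene (CPM of the class, log axis that is linear under 10) in melanoma-like, CAF-like and TAM-like cells, 1 point per tumour, with a line at the mean and colours for host genotype. The CAF-like points of *Egr1* sit between 294 and 954 and its melanoma-like points between 8.03 and 27.2.

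The mean of TAM-like cells lay between those of the other classes for 8 of the 10 genes, all but *Jund* and *Klf6*. Of the 10, 7 were higher than in melanoma-like cells, with 14.7% of 11424 tested genes called higher and 27.5% lower. *Junb* was at 465 ± 148 CPM (SD, n = 7), a log2 difference of 2.35 ± 0.16 (adjusted p = 2.57e-46, edgeR). The p-values of this comparison rest on a spread pooled over genes. They do not measure the spread of each gene between the 7 tumours. *Egr1* was at 64.4 ± 53.2 (2.33 ± 0.31) and rested on 0 to 31 UMIs per tumour. *Klf6* differed by 1.32 ± 0.15, *Fosb* by 1.14 ± 0.19, *Ier3* by 1.02 ± 0.18, *Fos* by 0.83 ± 0.13 and *Klf4* by 0.72 ± 0.21. *Ier2* (0.53 ± 0.27), *Jun* (0.24 ± 0.14) and *Jund* (-0.21 ± 0.16) were not called. Scaling by relative log expression moved the median of all genes in this comparison by 0.060 and called *Jun* (0.34) and *Ier2* (0.61) as well. The mean log2 TMM factor, which scales the fits but not the CPM, was 0.14 higher in TAM-like than in melanoma-like cells. Without Atf4D/D replicate 2, which gave 110 of the 244 cells, *Klf4* was not called (0.49, adjusted p = 0.116), nor without Atf4D/D replicate 4 (0.50, adjusted p = 0.0695). Over all 897 immune cells, TAM-like ones included, all 10 genes were called higher than in melanoma-like cells, an alternative added later. Of 11613 genes tested there, 2307 were called higher and 3001 lower. *Junb* differed by 3.25 ± 0.14, *Klf6* by 1.58 ± 0.13, *Ier2* by 1.25 ± 0.17, *Jund* by 0.62 ± 0.13 and *Jun* by 0.48 ± 0.13.

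Against CAF-like cells, 7 of the 10 genes were lower in TAM-like cells and 0 higher, beside 29.5% and 24.5% of 3151 tested genes. *Egr1* fell by 3.08 on the log2 scale (SE 0.25, adjusted p = 1.15e-11), *Ier2* by 1.24, *Fosb* by 1.07, *Jund* by 1.00, *Klf4* by 0.90, *Ier3* by 0.88 and *Jun* by 0.84. *Fos* (-0.31 ± 0.18), *Junb* (-0.28 ± 0.15) and *Klf6* (0.34 ± 0.18) did not pass the test. *Fos* was called lower without Atf4D/D replicate 3 (-0.43) or 4 (-0.46) and, like *Junb*, when cells with melanoma marker RNA were left out (-0.47 and -0.62) or the melanoma-marker subcluster was (-0.75 and -0.63), and *Klf6* was called higher without Atf4wt/wt replicate 4 (0.48). With all 897 immune cells in place of the TAM-like ones, 4 were lower and 1 higher. The shares over all tested genes are not given for that fit, so these counts are not read as a result.

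**Figure D2:**
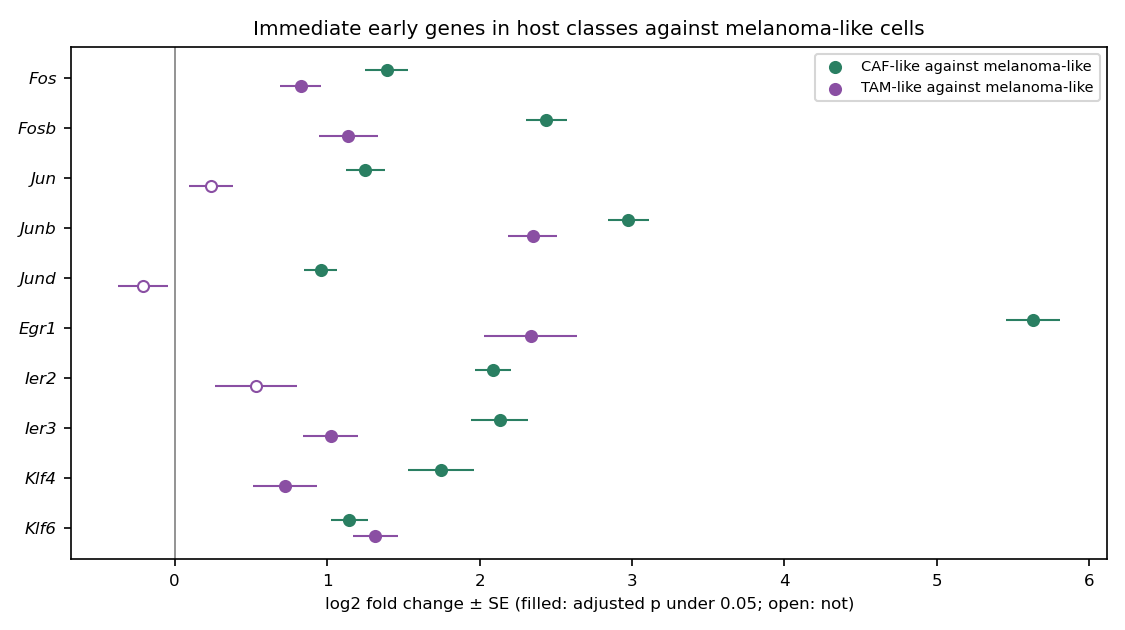
log2 fold change ± SE of each gene in CAF-like (green) and TAM-like (purple) cells against melanoma-like cells of the same tumours, with filled points where the adjusted p was under 0.05. *Egr1* stands apart at 5.63 in CAF-like cells, and *Jund* in TAM-like cells lies at -0.21.

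Other genes of the early response were counted from lists of related genes. Of the other early response transcription factors, 18 of 20 tested were higher in CAF-like cells and 1 lower (median log2 fold change 2.03, against -0.12 over all tested genes), with *Egr2* at 6.01 ± 0.28 on the log2 scale and *Cebpd* at 4.32 ± 0.18. Of the genes listed as feedback phosphatases and mRNA decay factors, 20 of 24 were higher and 3 lower, with *Btg2* at 4.67 ± 0.17. *Gadd45g*, at 4.78 ± 0.16, was on this list but is neither a phosphatase nor a decay factor. Of 15 listed secreted early response genes 11 were tested, and all 11 were higher. A gene could pass the low-count filter of these comparisons through either class alone. Genes almost absent from melanoma-like cells entered through CAF-like cells, so only a higher call was open to them. Among the 11 were *Ptgs2* at 339 ± 189 CPM against 0.302 ± 0.481, and *Il6* at 120 ± 67.1 against 0.282 ± 0.301 (SD, n = 8). *Ptgs2* encodes the inducible cyclooxygenase, an enzyme that is not itself secreted. The upstream kinases and factors were mixed, with 5 of 22 higher and 6 lower. Of the other AP-1 and bZIP partners, 5 of 14 were higher and 2 lower. In CAF-like cells these counts stand beside 25.2% of all tested genes higher and 28.4% lower. In TAM-like against melanoma-like cells, beside 14.7% higher and 27.5% lower, the same lists had 8 of 19 early transcription factors higher and 5 lower, 14 of 24 feedback genes higher and 4 lower, 6 of 9 secreted genes higher and 2 lower, 4 of 22 upstream genes in each direction, and 7 of 13 AP-1 and bZIP partners higher and 1 lower.

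Heat shock and dissociation stress genes were measured beside these results. In CAF-like cells 6 of 14 were higher and 7 lower than in melanoma-like cells (25.2% and 28.4% of all tested genes), with *Hspa1a* at 43.1 ± 26.8 CPM against 0.278 ± 0.334 and *Hspd1* at 470 ± 70.7 against 1203 ± 97.0 (SD, n = 8), and in TAM-like cells 2 of 14 were higher and 7 lower (14.7% and 27.5%). Their part in the result was not tested.

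Within the CAF-like cells, the subcluster led by *Cxcl13*, *Pi16* and *Clec3b* (131 cells) had the highest means of 4 genes, with *Fos* at 1401, *Egr1* at 1264, *Klf4* at 832 and *Fosb* at 801 CPM. The subcluster led by *Rgs5*, *Kcnj8* and *Abcc9*, genes known from pericytes (83 cells), had *Junb* at 935 but *Klf4* at 73.1. The melanoma-marker subcluster (221 cells) had the lowest *Egr1*, at 383. Subclusters had at least 10 cells in only 3 to 7 of the tumours, so these levels are given without a test.

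Among rarer host cells, T/NK-like cells (103) had *Junb* at 1188 and *Jund* at 948 CPM, and *Ier3* at 45.6. Dendritic-like cells (68) had *Junb* at 954 and *Klf6* at 615. An unnamed immune subcluster led by *Chil3*, *Ccr2* and *Ly6c2* (296 cells) had the highest *Junb* of all, 1368, with *Ier3* at 956 and *Fos* at 859. *Egr1* was at 101 or below in these 3 groups, against 614 in CAF-like cells. At least 10 cells were present in 5 tumours for T/NK-like, 4 for dendritic-like and 7 for the unnamed subcluster. The T/NK-like sums held 11119 to 29617 UMIs and the dendritic-like ones 13137 to 24756. Low levels there, such as those of *Ier3* and *Egr1*, rest on few UMIs and are not read as traits of these cells.

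An unnamed cluster of 933 cells led by *Malat1*, with a median of 1583 UMIs and 0.463% mitochondrial counts per cell, had *Jun* at 817 and *Fosb* at 363 CPM but *Fos* at only 220, below its melanoma-like mean of 303.

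The pattern of each gene over 17 cell groups was compared with those of 9366 other genes by Pearson's r of log2 levels, as a description. Cell groups of a tumour share its library. *Junb* was most like *Fxyd5* (r = 0.976), *Fos* like *Prdx5* (0.965), *Egr1* like *Flrt2* (0.959), *Ier2* like *Areg* (0.954), *Jun* like *P4ha1* (0.945), *Fosb* like *Pttg1ip* (0.926), *Klf6* like *Plk2* (0.916), *Jund* like *Pnrc1* (0.898), *Klf4* like *Il13ra1* (0.890) and *Ier3* like *Irf2bp2* (0.885). Among the 10 genes, *Junb* and *Ier2* were the closest pair (r = 0.879) and *Jun* and *Ier2* the least alike (-0.084).

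Melanoma-like cells formed 9 clusters, built without the 10 genes. Summed over the 10 genes in each of the 9 clusters there were 36 calls higher and 32 lower than in the other melanoma-like cells. The shares over all tested genes are given with each cluster below. Clusters come from the same tumours, so the calls are not independent. The clusters were still built on genes that vary together with the 10 genes, so the calls describe the clusters. The same holds for the counts of hypoxia, cell cycle and integrated stress response genes given for clusters below. *Ier3* ranged most, 5.47-fold between cluster means, from 59.7 to 326 CPM, and *Fos* least, 1.30-fold, from 271 to 353.

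The clusters led by hypoxia genes had the highest *Ier3*, a gene known to respond to stress and hypoxia. In the cluster led by *Espn*, *Nppb* and *Car9* (3620 cells) it was at 223 CPM (log2 fold change 1.27 ± 0.04), and 9 of the 10 genes were higher, beside 31.7% of all tested genes higher and 31.3% lower; *Fosb* was not called. The mean log2 TMM factor of this cluster differed from that of the other cells by -0.11. In the cluster led by *Espn*, *Ndrg1* and *Anln* (971 cells), whose G2/M genes were also higher, 43 of 43, *Ier3* was at 326 (1.68), 8 genes were higher and *Junb* lower, beside 24.4% and 22.6%. All 14 hypoxia genes were higher in each of these clusters. *Srf*, the gene of the serum response factor, was higher by 1.21 ± 0.05 and 1.52 ± 0.07. It was named for the size of its change, and its part in the levels of the 10 genes was not tested.

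The cluster led by *Fgf21*, *Grb14* and *Nupr1* (3573 cells), in which 17 of 17 integrated stress response genes were higher, had 9 of the 10 genes higher, *Fos* excepted, beside 33.5% of tested genes higher and 32.7% lower. *Jun* had its highest cluster mean here, 473 CPM (log2 fold change 0.83), with *Klf4* at 141 (0.89) and *Jund* at 373 (0.68). *Cebpb* was higher by 1.84 ± 0.11 and *Gadd45a* by 2.19 ± 0.07.

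The cluster led by *Lgals3* and *Nes* (846 cells) had the highest *Junb*, 164 CPM (0.98), *Klf4*, 152 (0.73), and *Egr1*, 22.4 (0.67), and the lowest *Ier3*, 59.7 (-0.94). *Egr1* UMIs at such a level can come from free RNA in the droplets, so this value is not read as expression. Here 5 genes were higher and 1 lower, beside 16% and 20.1%. In the cluster led by *Kcnj13*, *Mgll* and *Trpm1*, *Junb* was higher by 0.56, *Klf4* by 0.13 and *Fos* by 0.09 while 6 genes were lower, beside 26.8% and 24.7%. In the interferon-gene cluster led by *Ifit1* and *Isg15*, *Junb* was higher (0.28) and *Ier3* lower (-0.19), beside 3.08% and 2.55%.

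Most of the 10 genes were lower in the other 3 clusters led by cell cycle genes. In the cluster led by *Cenpa*, *Ccnb2* and *Cdc20* (3115 cells) all 10 genes were lower, by 0.17 to 0.73, and 0 higher, beside 26.4% lower and 24.3% higher. In the cluster led by *Prc1* and *Cenpf* 7 were lower and 0 higher (29.8% and 28.6%), and in that led by *Uhrf1* and *Cdc6* 6 were lower and *Ier2* higher by 0.09 (31.3% and 30.4%).

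**Figure D3:**
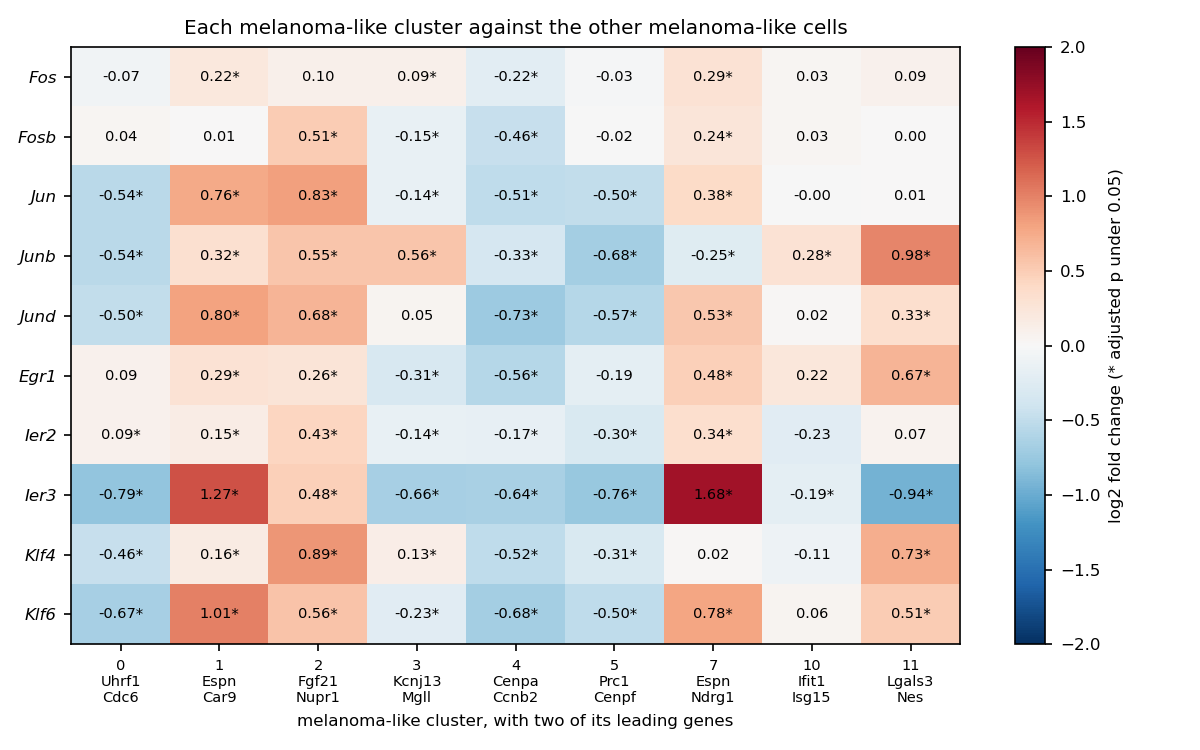
log2 fold change of each gene (rows) in each melanoma-like cluster (columns, with leading genes) against the other melanoma-like cells, colours from -2 to 2 and a star where the adjusted p was under 0.05. *Ier3* reaches 1.27 and 1.68 in the clusters led by *Espn*, and the column led by *Cenpa* is below 0 for all 10 genes.

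Host genotype made no called difference to any of the 10 genes in the 3 classes. In melanoma-like cells 4 of 12556 genes were called (0.0319%), in CAF-like cells 2 of 4644 (0.0431%) and in TAM-like cells 0 of 1060 (0%), where *Egr1* and *Ier2* were too low to be tested. At an unadjusted p under 0.05 the genes counted were 1429, 308 and 82, with 2, 1 and 1 of the 10 among them, and DESeq2 called 120, 4 and 2 genes and 0 of the 10.

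In melanoma-like cells *Klf4* was at 78.8, 102, 114 and 127 CPM in Atf4wt/wt replicates 1 to 4 and at 70.4, 96.0, 75.4 and 54.4 in Atf4D/D replicates 1 to 4. The groups overlapped and the difference was -0.55 ± 0.17 on the log2 scale (adjusted p = 0.312). *Ier3* was at 84.7, 108, 90.1 and 93.4 in Atf4wt/wt and at 122, 86.2, 128 and 211 in Atf4D/D (0.50 ± 0.21, adjusted p = 0.409). The highest value was that of Atf4D/D replicate 4. *Junb* differed by -0.29 ± 0.13 and the other 7 by -0.15 to 0.21.

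Within the melanoma-like clusters the same comparison called 1 of the 10 genes in 1 cluster. In the *Fgf21* cluster *Klf4* was at 168, 162, 171 and 172 CPM in Atf4wt/wt replicates 1 to 4 and at 122, 120, 119 and 93.2 in Atf4D/D replicates 1 to 4. *Klf4* was lower in Atf4D/D hosts there, at -0.61 ± 0.09 on the log2 scale (adjusted p = 0.0173, edgeR). Without Atf4wt/wt replicate 3 the comparison within clusters called 0 of the 10 genes, with the replicate block 0, and without Atf4D/D replicate 2 it called 2 lower. Its fitted difference was below 0 in 9 of 9 clusters, from -0.62 to -0.23, and that of *Ier3* was above 0 in 9 of 9, from 0.25 to 0.61, as was that of *Klf6*, from 0.01 to 0.45. The clusters come from the same tumours and are not independent. Of all tested genes, 0.0374% were called in the cluster led by *Uhrf1*, 0.0389% in that led by *Espn* and *Nppb*, 0.0580% in that led by *Fgf21*, 0.0801% in that led by *Kcnj13*, 0.0403% in that led by *Cenpa*, 0.0288% in that led by *Prc1*, 0.0671% in that led by *Espn* and *Anln*, 0.292% in that led by *Ifit1* and 0.0987% in that led by *Lgals3*.

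In CAF-like cells *Ier2* was at 269, 193, 173 and 221 CPM in Atf4wt/wt and at 150, 140, 171 and 152 in Atf4D/D. The nearest values of the 2 genotypes were 173 and 171, and the difference was -0.50 ± 0.17 (adjusted p = 0.615, edgeR). The other 9 genes differed by -0.39 to 0.23, and none was called. The melanoma-marker subcluster, which had the lowest mean *Ier2*, 96.6 CPM, of the 4 CAF-like subclusters, took a larger share of the Atf4D/D cells. Without the subcluster, Atf4D/D replicate 3 had too few cells and left the fit as well. *Ier2* then differed by -0.34 (adjusted p = 0.603, edgeR). The values of *Fos*, *Fosb*, *Egr1*, *Ier3* and *Klf6* turned from below to above 0, only just for all but *Fosb*, with 0 of the 10 called. Leaving out the subcluster and losing the tumour cannot be told apart here, and the part of the subcluster was not tested.

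In TAM-like cells 7 of the 8 tested genes were at higher fitted levels in Atf4D/D hosts, by 0.37 to 0.89, none of them called. *Ier3* was at 207, 168 and 167 CPM in Atf4wt/wt replicates 1, 3 and 4 and at 285, 307, 232 and 264 in Atf4D/D. Its difference was 0.67 ± 0.25 (adjusted p = 0.568, edgeR). Over all immune cells, an alternative added later, *Egr1* differed by 1.03 and *Klf6* by 0.78, with adjusted p of 0.337 and 0.333 (edgeR).

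An interaction term asked whether the difference between hosts was of another size in CAF-like than in melanoma-like cells. It was called for 0 of the 10 genes, beside 0.361% of 12746 tested genes, 46 in number. *Klf4* came nearest, at 0.93 ± 0.26 (adjusted p = 0.0867), and was past the threshold without Atf4wt/wt replicate 1 (1.56) or 3 (0.90) or Atf4D/D replicate 2 (0.96) or 3 (1.06). *Ier3* was at -0.74 ± 0.24 (adjusted p = 0.265), and past it without Atf4wt/wt replicate 2 (-1.08) or Atf4D/D replicate 2 (-0.95). The p-values of this test also rest on a spread pooled over genes. They do not measure the spread of each gene between the tumours. The SE of *Klf4* here, 0.26, was below the 0.43 of its host difference in CAF-like cells alone, and that of *Ier3*, 0.24, below 0.39. When genes had to pass the low-count filter in each class, a setting chosen after the first count had been seen, 0 of 4443 genes were called and 264 had an unadjusted p under 0.05.

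**Figure D4:**
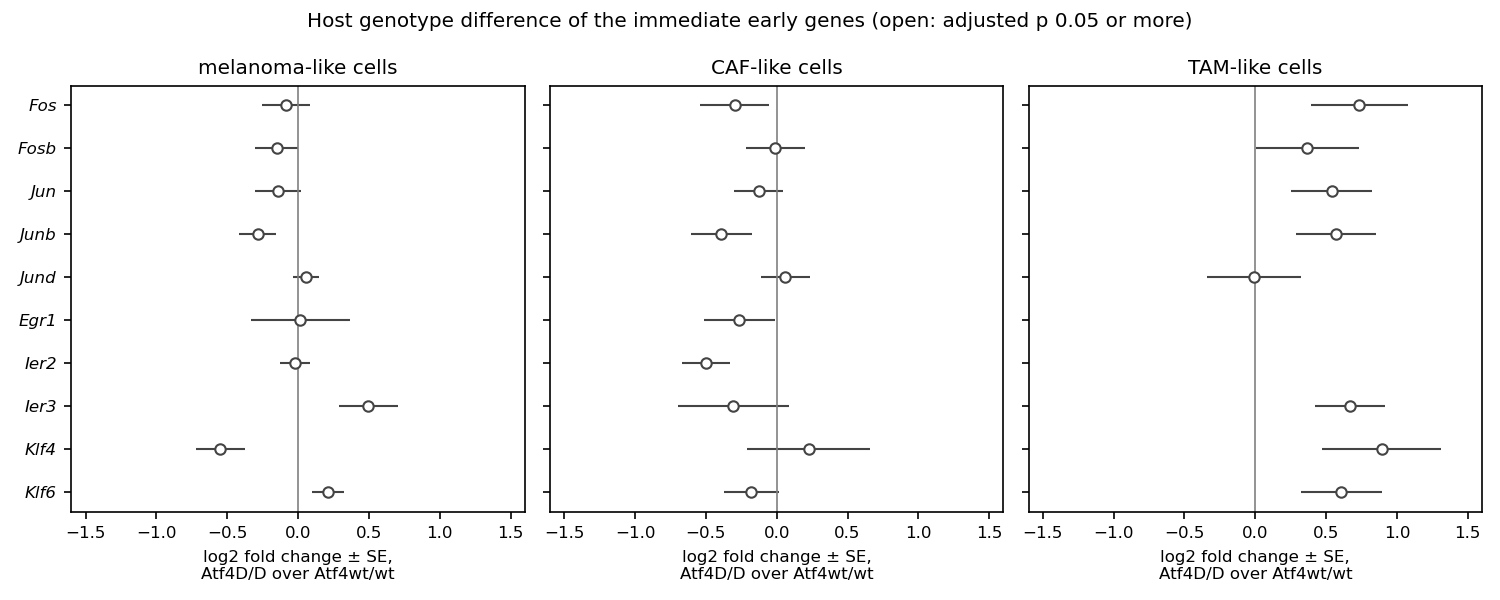
log2 fold change ± SE of each gene in Atf4D/D over Atf4wt/wt hosts in the 3 classes, with open points for adjusted p of 0.05 or more. In melanoma-like cells the points run from -0.55 for *Klf4* to 0.50 for *Ier3*, and all are open.

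Melanoma-like cells with a *Fos* UMI were set beside those without, within each tumour. They made up 70.8% to 83.0% of the cells. *Fosb* was 2.54 times as high in cells with a *Fos* UMI (median of 8 tumours, range 2.02 to 2.82), *Klf4* 2.07 times, *Jun* 1.90, *Junb* 1.72, *Egr1* 1.67, *Klf6* 1.52 and *Jund* 1.34, each above 1 in 8 of 8 tumours. *Ier2* was at 1.13 and above 1 in 7 of 8, and *Ier3* at 1.10 in 6 of 8. Median UMIs per cell were 9445 to 11816 in cells with a *Fos* UMI and 8086 to 10993 in those without, and the part of depth in these ratios was not tested. Thinned to 1000 UMIs per cell, 23.4% of melanoma-like cells had a *Fos* UMI, beside 24.1% of the 28 T/NK-like cells deep enough. A *Fos* UMI can come from free RNA in the droplet, so cells that have one are not called *Fos*-expressing, and the ratios describe UMIs counted together in a cell.

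**Figure D5:**
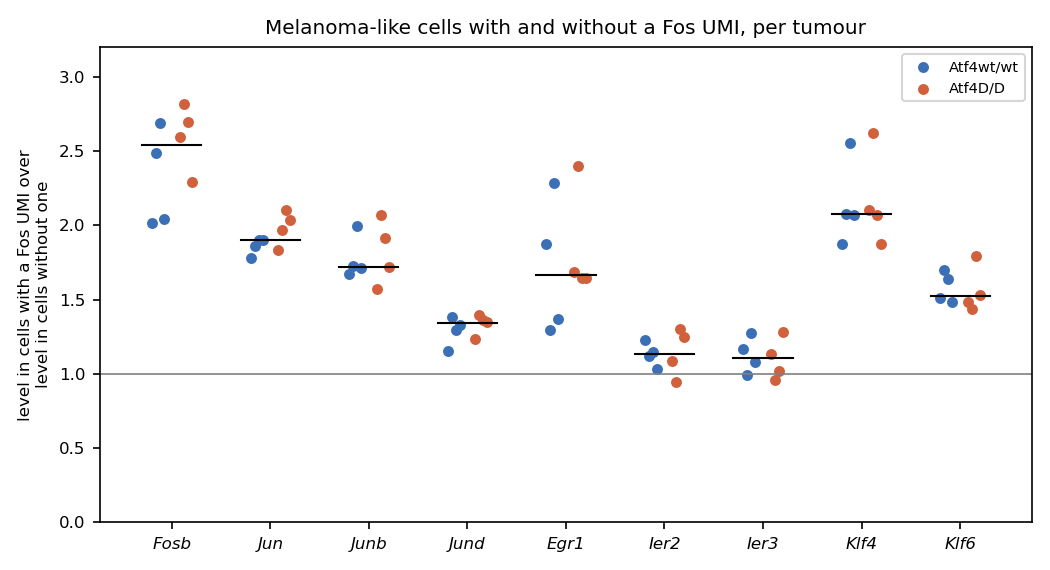
Ratio of each gene's level in melanoma-like cells with a *Fos* UMI over that in cells without, 1 point per tumour, with a line at the median and a grey line at 1. *Fosb* has the highest median, 2.54, and *Ier3* the lowest, 1.10.

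Across the 8 tumours *Fos* and *Fosb* levels in melanoma-like cells had Pearson's r = 0.763 (exact permutation p = 0.0170, adjusted over 9 pairs 0.153) and Spearman's rho = 0.905 (exact permutation p = 0.00456, adjusted 0.0411). Without the 2 tumours farthest from the median of *Fos*, Atf4wt/wt replicate 3 and Atf4D/D replicate 2, r was 0.777 (exact permutation p = 0.0556). The other 8 pairs had r from -0.300 for *Ier3* to 0.470 for *Klf4*, with adjusted p of 0.661 or more (exact permutation). *Jun* moved from r = 0.422 to 0.968 without those tumours.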

How the data were processed

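Single cells of 8 tumours were sequenced with the 10x 3′ assay. The authors ran Cell Ranger and deposited its unnormalized matrices of UMI counts; per the labels the kit was V3, and the submitters' processing notes name Cell Ranger 3.1.0, Seurat 3.2.1 and GRCm38. Cells needed 200 to 5000 genes and no more than 7.5% of UMIs from mitochondrial genes, and were clustered in Seurat 5.3.0 (R 4.3.3; 1990 variable genes, the 10 genes left out, 20 principal components, resolution 0.6, 15 clusters). No doublet caller was run. Clusters were named from fixed markers by thresholds set after the data were seen. Counts were summed per tumour and cell group (at least 10 cells) and tested with edgeR 4.0.16 (quasi-likelihood, TMM, filterByExpr, Benjamini-Hochberg over all tested genes, threshold 0.05), with tumour as a block between classes and clusters. SE is the log2 fold change over the square root of F. Levels are CPM, the UMIs of a gene scaled to 1e6 UMIs of the same sum. The samples are labelled as biological replicates. DESeq2, other filters and leaving out tumours were alternatives. The 10 genes were always named, with up to 5 listed genes per comparison by size of change, the 3 most similar genes each (the nearest is given) and 10 leading genes per cluster. The 10 genes and the lists were chosen with earlier results of these data known. The interaction test keeps the planned filter; it was rerun with a stricter filter after its count was seen, and both counts are given. CAF-like sums held 40826 to 1464789 UMIs. Fits were tested on simulated data. Python 3.11 with scipy and numpy gave the exact permutation tests.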

Additional observations from a re-analysis of the deposited data

Results flagged for a closer look

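In 5 of the 50 groups of 4 tumours looked at, 1 tumour stood apart from the other 3 by Dixon's criterion, which chance alone meets in about 1 group in 20. In melanoma-like cells of Atf4wt/wt hosts, *Fosb* was at 68.6 CPM in replicate 1 and at 103 to 108 in the others. In melanoma-like cells of Atf4D/D hosts, *Jund* was at 302 in replicate 1 and at 262 to 266 in the others. In CAF-like cells of Atf4wt/wt hosts, *Jund* was at 620 in replicate 1 and at 413 to 432 in the others. In CAF-like cells of Atf4D/D replicate 3, *Egr1* was at 294 (12 UMIs in 10 cells), against 600 to 637 in the others, and *Klf4* at 24.5 (1 UMI), against 292 to 347.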

How the results depend on the processing

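The 10 calls of CAF-like against melanoma-like cells stayed at 10 under every alternative run, and leaving out each tumour gave 5572 to 6513 genes past the threshold. Of the values of the 10 genes between classes, 386 kept direction and side of the threshold, 16 gained a call, 5 lost it and 3 reversed. Between genotypes 547 kept both, 8 gained a call and 46 reversed. The causes were not tested. With every gene of at least 1 count kept, host genotype was called for 48 genes in melanoma-like, 103 in CAF-like and 19 in TAM-like cells, TAM-like against CAF-like cells for 3810, the interaction for 1 of the 10 genes in each direction, and *Jund* by genotype in TAM-like cells was 0.022. DESeq2 gave 120, 4 and 2 genes by genotype. With sex as a covariate the counts were 0 in melanoma-like and 0 in CAF-like cells and *Egr1* in melanoma-like cells was -0.20. With a mitochondrial limit of 5%, *Egr1* in melanoma-like cells was -0.029, CAF-like cells had 4 genes and *Fosb* there was 0.17. At 1000 genes per cell or more, and with the 10 genes kept in the clustering, CAF-like cells had 0 genes, and without cells carrying melanoma markers 1; in the second of these settings 1 of the 10 genes was higher in TAM-like than CAF-like cells. Over all deposited barcodes the melanoma-like count was 0 and r of *Fos* with *Egr1* and *Ier2* was -0.033 and -0.069; centred on genotype means, r with *Egr1* was -0.0015.

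Some alternatives were chosen after seeing the data. With all immune cells in place of TAM-like cells, genotype was called for 1 gene and *Jund* was 0.062. In these immune cells *Jund* was 0.62 against melanoma-like cells. Against CAF-like cells 1 of the 10 genes was higher and 4 lower, with *Junb* at 0.37, given without the shares over all tested genes. Without marker-carrying cells and the 10-cell tumour, *Fosb* by genotype in CAF-like cells was 0.090. Without the melanoma-marker subcluster, genotype values in CAF-like cells were 0.00061 for *Fos*, 0.24 for *Fosb*, 0.046 for *Egr1*, 0.0082 for *Ier3* and 0.0090 for *Klf6*, and *Klf6* in TAM-like against CAF-like cells was -0.066. With the filter passed in each class, the interaction called 0 genes instead of 46, and 30 of the 46 were among the genes then tested.

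The labels give both genotypes replicate numbers 1 to 4, but same-numbered tumours did not deviate together (r from -0.35 to -0.06 in melanoma-like and -0.14 to 0.16 in CAF-like cells), so the numbers were not taken as pairs. With the replicate block, 0 genes were called by genotype in melanoma-like and 0 in CAF-like cells, 0 of the 10 genes within clusters, *Egr1* in melanoma-like cells was -0.055 and *Jund* in TAM-like cells 0.049.

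Leaving out each tumour in turn gave 0 to 21 genes by genotype in melanoma-like cells, with *Fos* from -0.21 to 0.12, *Jund* from -0.017 to 0.11, *Egr1* from -0.46 to 0.28 and *Ier2* from -0.10 to 0.043. In CAF-like cells it gave 0 to 2 genes, with *Fosb* from -0.13 to 0.11, *Jun* from -0.25 to 0.022, *Jund* from -0.011 to 0.22 and *Klf4* from -0.048 to 0.78, and in TAM-like cells 0 to 1, with *Jund* from -0.38 to 0.25. TAM-like against CAF-like cells ran from 879 genes, without Atf4D/D replicate 2, to 2200, without Atf4D/D replicate 3, with 0 to 1 of the 10 higher and 7 to 8 lower. Within clusters 0 to 2 of the 10 were lower and 0 to 1 higher by genotype. The interaction ran from 25 genes, without Atf4D/D replicate 4, to 92, without Atf4D/D replicate 2, with 0 to 1 of the 10 higher and 0 to 1 lower, *Fos* from -0.46 to 0.049, *Fosb* from -0.042 to 0.43, *Jun* from -0.15 to 0.32, *Junb* from -0.32 to 0.031, *Jund* from -0.13 to 0.19 and *Egr1* from -0.58 to 0.13. The relation with *Fos* passed for 0 to 1 genes, the 1 without Atf4wt/wt replicate 4, with r from -0.29 to 0.23 for *Egr1*, -0.22 to 0.51 for *Ier2*, -0.010 to 0.68 for *Junb*, -0.0050 to 0.55 for *Jund* and -0.050 to 0.49 for *Klf6*. CAF-like sums went down to 40826 UMIs.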

Other observations

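The 13016 barcodes above the mitochondrial limit, which entered only the alternative over all deposited barcodes, had levels near those of melanoma-like cells, with *Fos* at 251, *Jun* at 278, *Junb* at 87.9 and *Egr1* at 14.7 CPM (means of 8 tumours). An unnamed cluster of 1841 cells led by *Gm42418*, with a median of 1215 UMIs per cell, had *Fos* at 271, *Jun* at 230 and *Egr1* at 13.5. The 38 endothelial-like cells reached 10 cells in 1 tumour only, where *Jun* was at 914 and *Egr1* at 365.

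The interferon response genes were higher in TAM-like than in melanoma-like cells for 12 of 12 tested, and the integrated stress response genes lower for 15 of 17 and higher for 2, beside 14.7% of all tested genes higher and 27.5% lower. In CAF-like cells 10 of 12 interferon response genes were higher and 1 lower, and 10 of 17 integrated stress response genes lower and 2 higher, than in melanoma-like cells, beside 25.2% and 28.4%.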
